A study of Mus musculus with 6 samples.

Results

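The neutrophil granule genes are 10 genes, of 35275 in the tables, whose proteins fill the granules and cytosol of neutrophils or mark the neutrophil surface: S100a8, S100a9, Mpo, Elane, Ngp, Camp, Ltf, Mmp8, Ly6g and Retnlg. They were taken by symbol, and all 10 had a row. They were chosen by their counts in these 6 libraries, with the difference between the groups already known, so the values of Sox2 cKO against Ctrl are given for these genes as a description, without a test. The series measured poly(A) RNA of spinal cord in 3 Sox2 cKO and 3 Ctrl mice of strain C57BL/6. The Sox2 cKO mice are labelled mGfap-Cre:Sox2fl/fl and were given no other treatment in the labels. In these mice, Cre recombinase under the mouse Gfap promoter removes the floxed Sox2 gene, which encodes a transcription factor, from astrocytes. Neutrophils arise from the blood lineage and are not the cells in which this Cre is meant to act. The Ctrl mice are labelled mGfap-Cre:Sox2+/+, with Cre and intact Sox2, whereas the study's methods describe littermates with the floxed alleles and no Cre. The labels put the age at 90 days in one field and 80 days in another, and the RNA integrity number above 6.8. The study's methods give an age of 80 days and a higher minimum for the RNA integrity number. Mice of both sexes were used in each group by the study's methods, and libraries were not assigned to a sex here.

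The columns of the tables carry numbers rather than sample names. Even numbers (2, 4 and 6) were read as Ctrl and odd numbers (1, 3 and 5) as Sox2 cKO, by the numbers that the study's blot gives to its mice, on the assumption that the same mice gave the RNA. Sox2 itself, the deleted gene, checked this order. Its normalized counts, scaled to library size as counts per 1000000 (CPM), were 19.9, 14.8 and 29.5 in the Ctrl group (libraries 2, 4 and 6) and 3.16, 2.69 and 2.98 in the Sox2 cKO group (libraries 1, 3 and 5), and the fitted log2 fold change was -2.86 (standard error, SE, 0.24, adjusted p = 0.000956, edgeR). Libraries held 21507911 to 28392184 counts on genes. The tissue markers fitted the labelled tissue, with Hoxc8, a gene of trunk position, at 139 to 190 CPM and Snap25, a synaptic gene of neurons, at 1860 to 2840 CPM. EdgeR quasi-likelihood tests of all 16137 genes that passed a filter on low counts called 3970 genes at an adjusted p under 0.05, but without Sox2 cKO library 1 the same test called 8 and without Ctrl library 4 it called 26.

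Neutrophils are short-lived white blood cells made in the bone marrow, and they carry their weapons in granules that are filled one kind after another as the cell matures. Primary granules, with myeloperoxidase and elastase, are made in the earliest precursors, and specific granules, with lactoferrin and antimicrobial proteins, are made later. S100A8 and S100A9, which pair to form calprotectin, make up much of the cytosol of the mature cell. Healthy spinal cord holds few neutrophils outside its vessels and meninges. In RNA of whole tissue, a larger number of such cells and more RNA per cell cannot be told apart.

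The genes lie at several sites of the genome, given here on mm10, and all of them are protein-coding. S100a8 lies at chr3:90668978-90670035 on the plus strand and S100a9 at chr3:90692632-90695721 on the minus strand, with 22.6 kb between them. Camp (chr9:109847379-109849617, minus strand), Ngp (chr9:110419747-110423012, plus strand) and Ltf (chr9:111019271-111042767, plus strand) follow each other on chromosome 9, with 570.1 kb between the first pair and 596.3 kb between the second. Mmp8 is elsewhere on the same chromosome (chr9:7558456-7568485, plus strand). Mpo lies at chr11:87793581-87804413, Elane at chr10:79886247-79888215, Ly6g at chr15:75155240-75159126 and Retnlg at chr16:48872621-48874496, each on the plus strand. An antisense gene, Gm11505, overlaps Mpo and had 0 counts in every library. Ly6g belongs to a family of similar genes that could share reads with it, which makes its low counts uncertain. Their transcripts had a median length of 930 bases, shorter than the 3060 of all genes tested.

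Promoters of S100a8, S100a9, Ngp, Ltf and Mmp8 are shown because the values below turn on these genes, and because they differ in a sequence that C/EBP factors, regulators of granule genes, are known to bind. Each runs from 250 bases before the RefSeq start of the gene through the 50 bases from it (GRCm38.p6, written along the strand of the gene). Capitals mark the letters TTGCNNAA on either strand. The windows are chr3:90668821-90669120 (plus) for S100a8, chr3:90695672-90695971 (minus) for S100a9, chr9:110419558-110419857 (plus) for Ngp, chr9:111019042-111019341 (plus) for Ltf and chr9:7558179-7558478 (plus) for Mmp8.
S100a8: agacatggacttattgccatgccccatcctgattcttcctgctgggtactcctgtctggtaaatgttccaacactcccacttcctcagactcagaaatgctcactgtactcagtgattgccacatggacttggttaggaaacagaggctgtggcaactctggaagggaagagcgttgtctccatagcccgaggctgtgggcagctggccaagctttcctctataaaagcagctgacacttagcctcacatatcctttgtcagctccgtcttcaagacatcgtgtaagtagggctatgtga
S100a9: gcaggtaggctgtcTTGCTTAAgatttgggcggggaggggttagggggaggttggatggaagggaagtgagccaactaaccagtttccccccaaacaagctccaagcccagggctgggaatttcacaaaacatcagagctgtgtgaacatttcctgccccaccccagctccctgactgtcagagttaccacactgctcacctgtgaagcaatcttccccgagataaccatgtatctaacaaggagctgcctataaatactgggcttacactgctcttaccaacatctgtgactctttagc
Ngp: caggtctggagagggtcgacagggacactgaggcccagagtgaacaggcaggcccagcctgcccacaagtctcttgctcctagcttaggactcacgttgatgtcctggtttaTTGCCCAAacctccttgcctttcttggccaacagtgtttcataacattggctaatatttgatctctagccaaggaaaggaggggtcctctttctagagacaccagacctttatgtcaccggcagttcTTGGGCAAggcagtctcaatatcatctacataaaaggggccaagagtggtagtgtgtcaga
Ltf: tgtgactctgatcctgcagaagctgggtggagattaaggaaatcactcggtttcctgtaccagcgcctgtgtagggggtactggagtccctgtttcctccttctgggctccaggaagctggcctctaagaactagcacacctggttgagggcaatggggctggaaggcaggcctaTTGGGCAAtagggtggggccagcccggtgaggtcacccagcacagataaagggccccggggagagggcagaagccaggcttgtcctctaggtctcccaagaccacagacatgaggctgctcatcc
Mmp8: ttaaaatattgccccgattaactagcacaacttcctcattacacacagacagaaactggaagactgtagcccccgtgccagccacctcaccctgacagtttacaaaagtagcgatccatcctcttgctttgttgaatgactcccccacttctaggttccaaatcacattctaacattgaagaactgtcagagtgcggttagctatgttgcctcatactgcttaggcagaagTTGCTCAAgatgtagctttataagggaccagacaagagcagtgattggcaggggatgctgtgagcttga
Of the 10 genes, all had a promoter in the RefSeq table, and 6 held TTGCNNAA, against 10.8% of all 32851 promoters of this length. The match began 236 bases before the start in S100a9, 138 and 11 bases before it in Ngp, 75 in Ltf, 19 in Mmp8, 232 in Ly6g and 246 in Retnlg. S100a8, Camp, Mpo and Elane held none in this window. GAGGAA, the core letters of sites for PU.1, were in 6 of the 10 and in 28.3% of all promoters. CAAAG, letters within sites of SOX factors, were in 6 of the 10 and in 53.9% of all promoters. Both strands were searched for each motif, and matches of different motifs could overlap. These matches describe the letters only.

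S100a8 and S100a9, the pair that forms calprotectin, were the most abundant of these RNAs per length. S100a8 had 128, 77 and 68 counts in the Ctrl group (libraries 2, 4 and 6), and 473, 579 and 142 in the Sox2 cKO group (libraries 1, 3 and 5). After normalization these were 5.74, 3.20 and 3.28 CPM in Ctrl and 20.8, 19.8 and 5.36 CPM in Sox2 cKO. Sox2 cKO libraries 1 and 3 stood far above the others, and library 5 fell below Ctrl library 2, so the groups overlapped. The means were 4.08 ± 1.44 CPM in Ctrl and 15.3 ± 8.62 CPM in Sox2 cKO (SD, n = 3), and the fitted log2 fold change was 1.91 (SE 0.44).

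S100a9 had 99, 104 and 54 counts in the Ctrl libraries, in the same order, and 572, 739 and 225 in the Sox2 cKO libraries. These were 4.44, 4.32 and 2.61 CPM in Ctrl against 25.1, 25.2 and 8.50 CPM in Sox2 cKO. Every Sox2 cKO library was above every Ctrl library, and library 5 was again the lowest of its group, at 2.24 times the Ctrl mean where libraries 1 and 3 were at 6.63 and 6.65 times. The fitted log2 fold change was 2.36 (SE 0.38), from means of 3.79 ± 1.03 and 19.6 ± 9.62 CPM (SD, n = 3). Per length, in counts scaled to length and library total (FPKM), S100a9 was at 0.584, 1.02 and 0.60 of the level of S100a8 in the Ctrl group (libraries 2, 4 and 6). The ratio was 0.913, 0.964 and 1.20 in the Sox2 cKO group (libraries 1, 3 and 5). The partners were closest to equal in Ctrl library 4, and the ratios of the groups overlapped. By mean FPKM, S100a8 stood at percentile 76.7 of the 24442 genes with a count in Ctrl and at percentile 93.1 in Sox2 cKO, and S100a9 at percentiles 70.7 and 92.9.

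**Figure D1:**
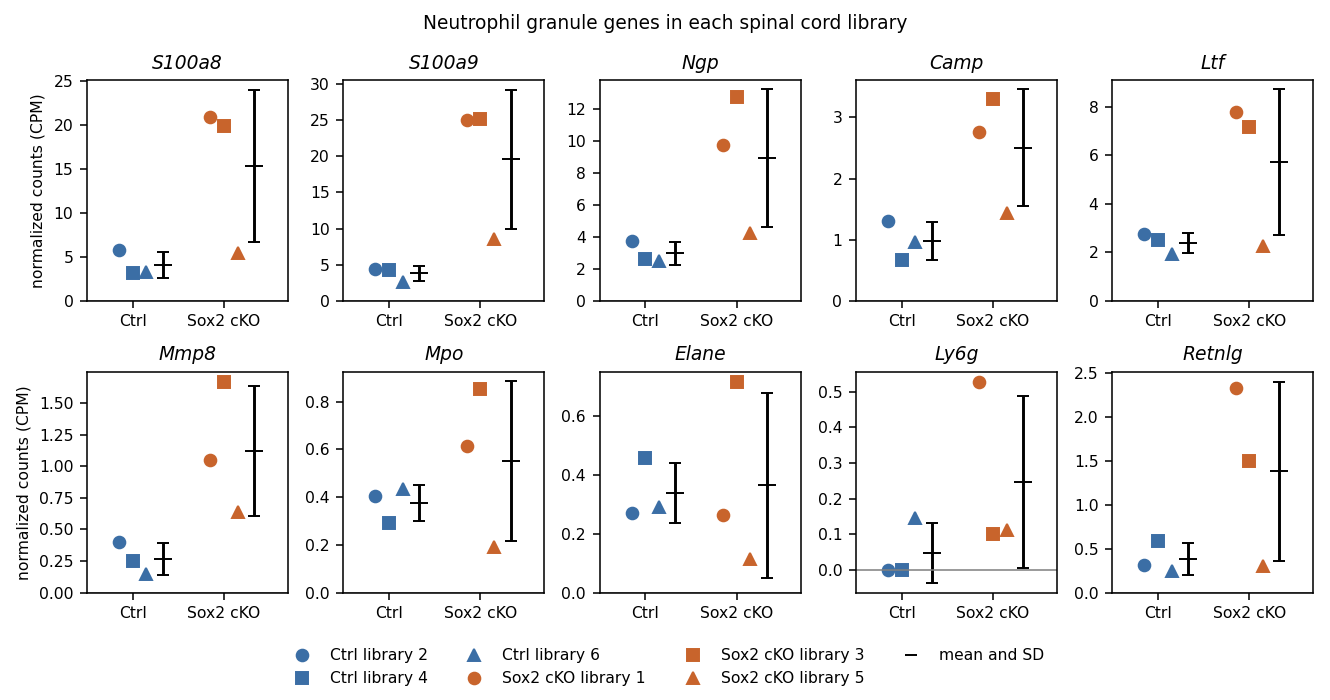
Normalized counts (CPM, vertical axis, one scale per gene) of the 10 genes in each library, with Ctrl libraries in blue, Sox2 cKO libraries in orange and the mean with its SD (n = 3) in black. Sox2 cKO library 5 (triangle) is the lowest of its group in 9 of the 10 genes, and for S100a8 its 5.36 CPM lies below the 5.74 CPM of Ctrl library 2.

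The primary granule genes were rare in all 6 libraries. Mpo, which encodes myeloperoxidase, the enzyme that makes hypochlorous acid from hydrogen peroxide, had 9, 7 and 9 counts in the Ctrl group (libraries 2, 4 and 6) and 14, 25 and 5 in the Sox2 cKO group (libraries 1, 3 and 5). Elane, which encodes neutrophil elastase, a serine protease, had 6, 11 and 6 counts in Ctrl and 6, 21 and 3 in Sox2 cKO. For both genes the highest and the lowest library were Sox2 cKO libraries 3 and 5, and neither gene passed the filter on low counts. Summed over the libraries of each group and divided by depth, Mpo had 44 counts against 25, a ratio of Sox2 cKO to Ctrl of 1.50 with a 95% interval of 0.900 to 2.56. The ratio for Elane was 1.11 with an interval of 0.625 to 2.01, from 30 against 23 counts. These exact binomial intervals cover counting error only, not the spread between mice, and are given as a description of the depth.

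The specific granule genes were more abundant and, like S100a8 and S100a9, had library 5 as the lowest of the Sox2 cKO group. Ngp, which encodes neutrophilic granule protein, had 84, 63 and 52 counts in the Ctrl group (libraries 2, 4 and 6) and 223, 376 and 113 in the Sox2 cKO group (libraries 1, 3 and 5). In CPM these were 3.77, 2.62 and 2.51 in Ctrl and 9.79, 12.8 and 4.27 in Sox2 cKO. The groups did not overlap, although library 5 was only 1.13 times the highest Ctrl library. The log2 fold change of Ngp was 1.60 (SE 0.35), from means of 2.97 ± 0.697 and 8.96 ± 4.34 CPM (SD, n = 3).

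Camp, which encodes the antimicrobial peptide cathelicidin, had 29, 16 and 20 counts in Ctrl and 63, 97 and 38 in Sox2 cKO. Its levels of 1.30, 0.665 and 0.965 CPM in Ctrl and 2.77, 3.31 and 1.44 CPM in Sox2 cKO did not overlap, with a log2 fold change of 1.36 (SE 0.36). Library 5 was 1.10 times the highest Ctrl library. Ltf, which encodes the iron-binding protein lactoferrin, had 61, 60 and 40 counts in Ctrl and 177, 210 and 60 in Sox2 cKO. In CPM, Ltf was at 2.74, 2.49 and 1.93 in Ctrl and 7.77, 7.16 and 2.27 in Sox2 cKO, where library 5 lay within the Ctrl range at 0.949 times the Ctrl mean. The log2 fold change of Ltf was 1.26 (SE 0.39). Mmp8, which encodes a collagenase of neutrophils, had 9, 6 and 3 counts in Ctrl and 24, 49 and 17 in Sox2 cKO. It passed the filter only through its Sox2 cKO libraries, since no Ctrl library reached 10 counts. Its log2 fold change was 2.06 (SE 0.49), with no overlap between 0.404, 0.249 and 0.145 CPM in Ctrl and 1.05, 1.67 and 0.642 CPM in Sox2 cKO.

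Ly6g and Retnlg stand outside the granules. Ly6g, which encodes the surface protein used to identify mouse neutrophils, had 0, 0 and 3 counts in the Ctrl group (libraries 2, 4 and 6) and 12, 3 and 3 in the Sox2 cKO group (libraries 1, 3 and 5). The ratio of 18 to 3 summed counts, scaled to depth, was 5.12 with a 95% counting interval of 1.50 to 27.1, and 12 of the 18 counts came from library 1. Retnlg, which encodes a secreted resistin-like protein, had 7, 14 and 5 counts in Ctrl and 53, 44 and 8 in Sox2 cKO. Libraries 1 and 3 were at 6.14 and 3.96 times the Ctrl mean and library 5 was at 0.797 times it, inside the Ctrl range. The log2 fold change of Retnlg was 1.81 (SE 0.65).

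**Figure D2:**
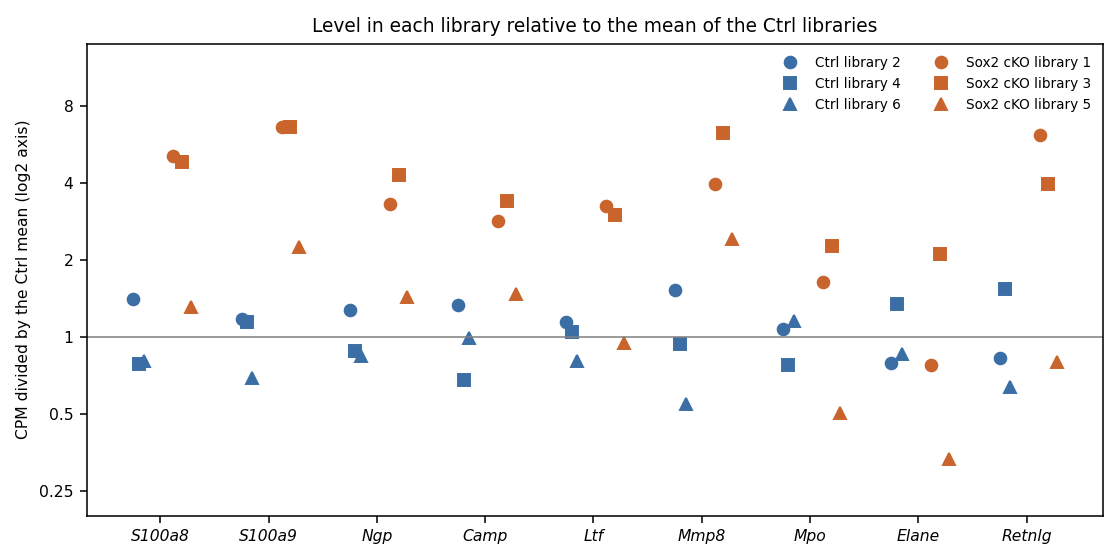
CPM of each library divided by the mean of the Ctrl libraries (log2 axis, line at 1) for 9 of the genes, with Ctrl libraries in blue and Sox2 cKO libraries in orange. Ly6g is left out because its Ctrl mean rests on 3 counts. Libraries 1 and 3 sit above every Ctrl library for each gene but Elane, while library 5 runs from 0.335 times the Ctrl mean for Elane to 2.41 times for Mmp8.

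Set side by side, most of the genes shared their lowest library within the Sox2 cKO group. The highest of the group was library 1 in 4 genes and library 3 in 6. Sox2 cKO library 5 was the lowest of its group in 9 of the 10 genes, Ly6g being the exception, and among all genes tested it was the lowest in 31.7%. Libraries 1 and 3 were above every Ctrl library in 8 genes, all but Elane and Ly6g, whereas library 5 was above every Ctrl library in 4. Those 4 genes, S100a9, Ngp, Camp and Mmp8, were the ones in which the groups did not overlap, and 22.6% of all genes tested had every Sox2 cKO library above every Ctrl library. The summed level of the 10 genes was 19.4, 14.9 and 12.6 CPM in the Ctrl group (libraries 2, 4 and 6) and 71.0, 73.1 and 23.2 CPM in the Sox2 cKO group (libraries 1, 3 and 5). Library 5 thus lay nearer to Ctrl library 2 than to the other libraries of its own group.

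The makeup of this sum also differed between libraries. S100a8 and S100a9 together gave 52.5%, 50.6% and 46.9% of the counts of the 10 genes in the Ctrl group (libraries 2, 4 and 6), and 64.6%, 61.5% and 59.8% in the Sox2 cKO group (libraries 1, 3 and 5). This share was higher in each Sox2 cKO library, library 5 included. The summed FPKM of the specific granule genes was 14.6, 7.08 and 9.37 times that of Mpo and Elane in the Ctrl libraries. In the Sox2 cKO libraries it was 31.2, 17.8 and 36.4 times that of the primary granule genes, again without overlap. The highest ratio, in library 5, rested on 8 counts of Mpo and Elane together.

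Of the 10 genes, 7 passed the filter on low counts, and Mpo, Elane and Ly6g did not. The edgeR test called 6 of the 7 higher in Sox2 cKO, all but Retnlg, and 0 lower, beside 12.2% of all genes tested called higher and 12.4% called lower. At an unadjusted p under 0.05, for which no share of all genes is given here, the same test had 7 genes higher and 0 lower. DESeq2 called 7 higher and 0 lower, beside 12.7% of the genes it tested called higher. Nothing is read from these counts, because the genes were chosen for this difference. The calls also rested on single libraries. Without Ctrl library 4 none of 8 tested was called (7 at an unadjusted p under 0.05), where 0.0794% of all genes were called higher, and without Sox2 cKO library 1 none of 9 was called (6 unadjusted), where the share was 0.0182%. One gene was called without Ctrl library 6 (3.64% of all genes) and 1 without Sox2 cKO library 3 (4.27%). The test without Ctrl library 2 called 6 (18.3% of all genes), and without Sox2 cKO library 5 it called 7 (8.13%).

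**Figure D3:**
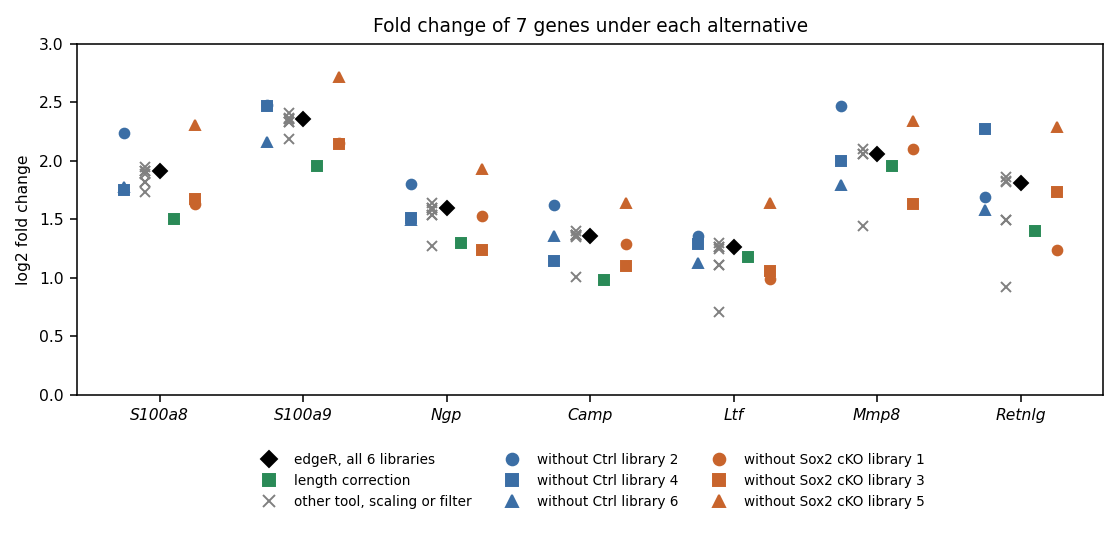
Log2 fold change of Sox2 cKO over Ctrl (vertical axis) for the 7 genes that passed the filter, with all libraries (black diamonds), with a correction for gene length (green), with another tool, scaling or filter (grey) and with each library left out (blue and orange). Each value is above 0, and leaving out Sox2 cKO library 5 gave 2.72 for S100a9 and 1.64 for Ltf. The genes were chosen with this difference known, so the shared sign is a description.

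The direction of these 7 genes was the same under each alternative, while the sizes moved with the libraries. The genes were chosen with this difference known and the fits share libraries, so the shared direction is a description and no test. Without Sox2 cKO library 5 the log2 fold change of S100a8 was 2.31, that of Ltf 1.64 and that of Retnlg 2.29. Correcting each library for its own trend with gene length lowered S100a8 to 1.50 and Camp to 0.98. With that correction 4 of the 7 were called higher, beside 6.08% of all genes, and limma on log2(FPKM + 0.1) without a filter called 1 of the 10, beside 5.13%. Over all alternatives S100a8 ran from 1.50 to 2.31, S100a9 from 1.96 to 2.72, Ngp from 1.24 to 1.93, Camp from 0.98 to 1.64, Ltf from 0.71 to 1.64, Mmp8 from 1.44 to 2.47 and Retnlg from 0.92 to 2.29. Elane ran from -0.04 to 0.31.

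Genes of the same cells that the choice did not use were counted next. Each edgeR count with all libraries is to be read beside the shares of all genes tested, 12.2% called higher and 12.4% called lower. DESeq2 called 12.7% of the genes it tested higher. Fits with 1 library left out, here and in the lists below, have their own shares called higher. They were 0.0794% without Ctrl library 4, 3.64% without Ctrl library 6, 0.0182% without Sox2 cKO library 1 and 4.27% without Sox2 cKO library 3. Without Sox2 cKO library 5 the share was 8.13%, and with the length correction it was 6.08%. The share of all genes at an unadjusted p under 0.05 is larger and is not given here, so the unadjusted counts have no share to be read beside. The calls among other granule proteins were all higher in Sox2 cKO. Of 18 listed, 13 were tested, 6 were called higher and 0 lower by edgeR (8 higher and 0 lower unadjusted, 6 and 0 by DESeq2), and the median log2 fold change of the 13 was 0.75 against 0.018 for all genes. Without Ctrl library 4 or Sox2 cKO library 1 none of them was called, with 8 and 6 at an unadjusted p under 0.05. Lcn2, which encodes the siderophore-binding lipocalin of specific granules and is also made by astrocytes under stress, was at 1.75, 0.748 and 1.01 CPM in the Ctrl group (libraries 2, 4 and 6). It was at 17.6, 10.5 and 1.51 CPM in the Sox2 cKO group (libraries 1, 3 and 5), so that library 5 was within the Ctrl range (log2 fold change 3.07, SE 0.72, adjusted p = 0.0176, edgeR). As in the granule genes above, library 5 was the lowest of its group. Lyz2, a lysozyme also made by macrophages and microglia, was at 25.3, 16.5 and 7.53 CPM in Ctrl and 59.9, 32.2 and 27.2 CPM in Sox2 cKO (log2 fold change 1.27, adjusted p = 0.0375, edgeR). Chil3, a chitinase-like protein, and Pglyrp1, which binds bacterial peptidoglycan, rose by 1.54 and 0.75 on the log2 scale (adjusted p = 0.0329 and 0.0340, edgeR). Hp and Cd177 were the other 2 called and are named because they complete the count, with log2 fold changes of 1.51 and 2.08. Hp and Cd177 passed the filter only through their Sox2 cKO libraries, with 9, 10 and 11 counts of Hp and 7, 4 and 5 of Cd177 in Ctrl. The 6 called by DESeq2 were not the same genes, since Lyz2 was not among them and Cyba, a subunit of the NADPH oxidase, was. With the length correction 3 of the 13 were called, and Lyz2, Chil3 and Pglyrp1 were not among these. Over the 15 fits, the one of all libraries included, Lcn2 was called in 9, Pglyrp1 in 9, Chil3 in 7 and Lyz2 in 6. Prtn3, a primary granule protease, was not called at 0.96 (adjusted p = 0.172, edgeR), and Ctsg, another, had too few counts to test. Without Ctrl library 6 the list had 1 call and without Sox2 cKO library 3 it had 2.

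The surface genes of neutrophils could hardly be tested. Of 14 listed, 3 passed the filter, and edgeR called 0 of them in either direction, with 0 at an unadjusted p under 0.05 and 0 calls by DESeq2. Over all 14, most of them at a few counts, the median log2 fold change was 0.73 without a filter and 0.76 by DESeq2, beside 0.66 and 0.65 for the 18 other granule proteins. The difference between the lists was not tested. Itgam, an integrin that microglia also carry, was at 16.4 to 25.4 CPM in Ctrl and 16.3 to 20.7 CPM in Sox2 cKO, with a log2 fold change of -0.19 (SE 0.16). Itgb2, its partner chain, had a log2 fold change of 0.07 (SE 0.22). The third, Csf3r, the receptor for the growth factor of granulocytes, is named to complete the count and had a log2 fold change of 0.18 (SE 0.24). Without Ctrl library 2 the same test called Itgam lower. Cxcr2, the chemokine receptor that draws neutrophils, had 0, 2 and 2 counts in the Ctrl group (libraries 2, 4 and 6) and 9, 9 and 2 in the Sox2 cKO group (libraries 1, 3 and 5), too few to test. It was chosen for mention after its counts were seen.

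Abundant cytosolic genes of neutrophils were few at testable levels. Of 14 listed, 5 were tested, 3 were called higher and 0 lower by edgeR (4 higher and 0 lower unadjusted, 3 and 0 by DESeq2), and the median log2 fold change was 1.02. G0s2, a regulator of lipid breakdown with wider expression, rose from 6.04 ± 1.13 to 12.3 ± 1.29 CPM (SD, n = 3, log2 fold change 1.02, adjusted p = 0.0124, edgeR). Ifitm6 and Wfdc17 had log2 fold changes of 2.27 and 1.81 (adjusted p = 0.0383 and 0.0449, edgeR) at mean levels below 1 CPM in both groups. Both passed the filter only through their Sox2 cKO libraries, with 7, 0 and 6 counts of Ifitm6 and 8, 2 and 1 of Wfdc17 in Ctrl. The 3 called by DESeq2 were G0s2, Ifitm6 and Anxa1, and DESeq2 gave Wfdc17 no adjusted p. For G0s2 and Wfdc17, library 5 was close to libraries 1 and 3. None of the 3 was called without Ctrl library 4 or Sox2 cKO library 1. Ifitm6 and Wfdc17 were also not called without Ctrl library 6, without Sox2 cKO library 3 or with the length correction, and Wfdc17 not without Sox2 cKO library 5.

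Of 11 genes that direct the making of granulocytes, 8 were tested, 2 were called higher and 0 lower by edgeR (2 higher and 1 lower unadjusted, 2 and 0 by DESeq2). Cebpb rose from 2.37 ± 0.248 to 5.35 ± 0.952 CPM (log2 fold change 1.17, adjusted p = 0.0125, edgeR), and Cebpd from 3.40 ± 0.257 to 6.30 ± 1.28 CPM (log2 fold change 0.88, adjusted p = 0.0142, edgeR). Both encode C/EBP factors that glia and other cells also use, and neither gene was called without Ctrl library 4 or Sox2 cKO library 1, nor Cebpd with the length correction. In Cebpb, library 5 was above library 1, at 5.74 against 4.26 CPM. Cebpe, which drives the specific granules of precursors, had 5 counts or fewer in every library, and Gfi1, another factor of the lineage, was at 0 in all but library 5.

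**Figure D4:**
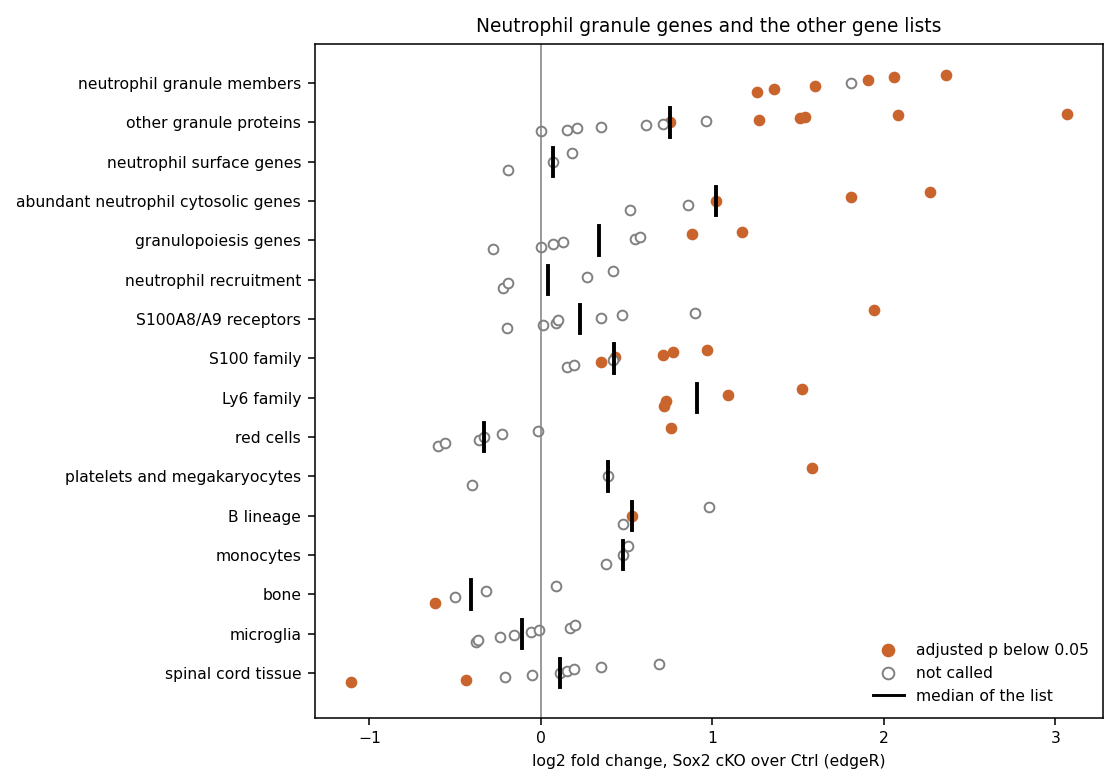
Log2 fold change of Sox2 cKO over Ctrl (horizontal axis) for the tested genes of each list, with genes at an adjusted p under 0.05 in orange, the others open, and a bar at the median of each list other than the top one. The other granule proteins have a median of 0.75, and the recruitment and microglia lists have medians of 0.04 and -0.11. The recruitment median covers 4 of 15 genes and is -0.2 over the 12 with a count, without a filter. The median of 0.07 for the surface genes covers 3 of 14 genes and is 0.73 over all 14 without a filter.

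Genes that bring neutrophils into tissue and that respond to calprotectin were also measured. Of 15 recruitment genes 4 were tested, and edgeR called 0 in either direction, with 0 higher and 1 lower at an unadjusted p under 0.05 and 0 calls by DESeq2. Ackr1, a chemokine-binding protein of venules, and Vcam1, an adhesion molecule, had log2 fold changes of 0.27 and -0.22 (SEs 0.14 and 0.09). Of 8 receptors and partners of S100A8 and S100A9, edgeR called 1 higher and 0 lower (2 and 0 unadjusted, 1 and 0 by DESeq2), a share near the 12.2% of all genes. The called gene was Ager, the receptor RAGE, at 0.493, 0.416 and 0.290 CPM in Ctrl and 1.63, 0.443 and 2.64 CPM in Sox2 cKO (log2 fold change 1.94, adjusted p = 0.0391, edgeR). With 11, 10 and 6 counts in Ctrl, it passed the filter only through its Sox2 cKO libraries. The groups overlapped in Ager, library 5 was its highest library, it was not called with the length correction, and its log2 fold change ran from 0.57 to 2.40 over the alternatives. Tlr4, the other main receptor, named for that role, had a log2 fold change of 0.09 (SE 0.26).

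The families to which members belong gave a wider comparison. Of 12 further S100 genes, 8 were tested, 5 were called higher and 0 lower (5 and 0 unadjusted, 5 and 0 by DESeq2), and the median log2 fold change was 0.43. S100b, a calcium-binding protein of astrocytes and other glia, S100a1 and S100a10 had log2 fold changes of 0.71, 0.77 and 0.43 (adjusted p = 0.0229, 0.0149 and 0.0141, edgeR). With the length correction 0 of the 8 were called (3 higher and 1 lower unadjusted), the median was 0.03, S100a10 was at 0.04, and S100a6 went from 0.35 to -0.05. S100a8 and S100a9 lay at 1.91 and 2.36 without the length correction and at 1.50 and 1.96 with it. S100a11, named because its log2 fold change was the largest of the 5 called, was at 0.97 without the correction. Of 8 further Ly6 genes, 4 were tested and all 4 were called higher, with Ly6a at 1.52, Ly6c1 at 1.09, Ly6h at 0.73 and Ly6e at 0.72, and all 4 were also called with the length correction. In each of these 4, as in most of the granule genes, library 5 was the lowest of the Sox2 cKO group. Ly6a was at 54.5, 30.8 and 26.7 CPM in libraries 1, 3 and 5. None of the 4 Ly6 genes, nor S100b, S100a1 or S100a10, was called without Ctrl library 4 or Sox2 cKO library 1.

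Markers of other cells that blood, bone marrow or membranes around the cord could bring were measured in the same libraries. The summed level of 8 red cell genes was 96.5, 103 and 192 CPM in the Ctrl group (libraries 2, 4 and 6) and 136, 133 and 145 CPM in the Sox2 cKO group (libraries 1, 3 and 5). The groups overlapped, and the highest red cell level was in Ctrl library 6, where the granule genes had their lowest sum. The haemoglobin gene Hbb-bs had a log2 fold change of -0.02 (SE 0.29). Pf4, a platelet chemokine, was called at 1.58 (adjusted p = 0.0335, edgeR), as 1 of 3 tested of 6 platelet genes, whose sums of 5.31 to 8.48 CPM in Ctrl and 6.88 to 10.7 CPM in Sox2 cKO overlapped. With 29, 10 and 8 counts in Ctrl, Pf4 passed the filter only through its Sox2 cKO libraries. Of 10 B lineage genes, 3 were tested and 1 was called, Ighm at 0.53, with sums of 34.1 to 49.5 CPM in Ctrl and 54.3 to 69.1 CPM in Sox2 cKO. Of 7 bone genes, 4 were tested and 1 was called lower, Dmp1 at -0.62, with sums of 58.9 to 105 CPM in Ctrl and 59.3 to 64.0 CPM in Sox2 cKO. Pf4, Ighm and Dmp1 were not called without Ctrl library 4 or 6 or Sox2 cKO library 1 or 3. The part of blood, marrow or bone in the granule gene values was not tested.

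Lists of other white cells gave no calls by edgeR. Of 6 monocyte genes, 3 were tested and 0 were called by edgeR, by DESeq2 or at an unadjusted p under 0.05, with Fn1 and F13a1 at log2 fold changes of 0.38 and 0.48 and sums of 62.6 to 141 CPM in Ctrl and 129 to 145 CPM in Sox2 cKO. Most of each sum was Fn1, at 58.8 to 133 CPM in Ctrl. The 3 not tested are named to complete the list, with counts in Ctrl libraries 2, 4 and 6, then Sox2 cKO libraries 1, 3 and 5. Ly6c2 had 9, 9, 3, 27, 19 and 3 counts, Plac8 had 6, 1, 3, 9, 20 and 2, and Ms4a4c had 5, 9, 2, 11, 6 and 6. Library 5 was the lowest of its group in Ly6c2 and Plac8, and library 3 in Ms4a4c. The most abundant of 7 T and NK cell genes, Trbc2, had 6, 0 and 5 counts in Ctrl and 18, 17 and 5 in Sox2 cKO. None of the 7 passed the filter, and their sums were 0.457 to 0.538 CPM in Ctrl and 0.853 to 1.58 CPM in Sox2 cKO. None of 7 genes of eosinophils, basophils and mast cells passed it, with sums of 0.269 to 0.531 and 0.176 to 0.921 CPM, and Mcpt4, a mast cell protease, was at 0 in every library. All 8 microglia genes were tested and 0 were called by edgeR (0 higher and 3 lower unadjusted, 0 and 2 by DESeq2), and Csf1r, a growth factor receptor, had a log2 fold change of -0.38. Of 9 genes of the tissue itself, 2 were called lower, the astrocyte genes Gfap at -1.11 and Aqp4 at -0.44. Cldn5, an endothelial gene named after its values were seen, was at 43.6 CPM in Sox2 cKO library 1 and 15.5 to 19.3 CPM in the other 5 libraries, which sets library 1 apart from library 3 although their granule gene sums were alike. Its part in the values of library 1 was not tested.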

How the data were processed

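Spinal cord RNA of 3 Sox2 cKO and 3 Ctrl mice was sequenced. Single-end reads were mapped by the authors on mm10 (STAR 2.5), and they deposited raw HTSeq 0.6.1 counts per gene. They also deposited FPKM, the counts scaled by gene length and library total. The library kit marks strand, and the strand setting of the counting is not given in the sources used here. Columns were grouped by number, as described above, and 0 other columns held values of samples. Symbols and positions came from GENCODE M21 (34490 of 35275 identifiers matched), promoters from RefSeq.

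The edgeR 4.0.16 fit, in R 4.3.3, used all 6 libraries (filterByExpr, TMM, quasi-likelihood test without covariates, Benjamini-Hochberg adjustment at 0.05), two-sided, over 16137 genes. CPM used TMM library sizes. The fits were tested on simulated data. The genes, the lists and their tests were chosen with earlier results of these data known. Beside the members and Sox2, genes named were, for each list, up to 4 called genes of largest mean CPM, or 1 or 2 where none was called, and the 8 of most similar pattern. Alternatives were DESeq2 1.42.0, upper quartile scaling, no filter, at least 10 counts in every library, limma 3.58.1 on log2 FPKM with pseudocounts of 1 or 0.1 (mean FPKM of at least 0.5, or no filter), a length correction by lowess (span 0.3), and each library left out. Replicates are mice, so the p-values measure the spread between mice. Single values of 2 list genes that this rule would name are not reported here.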

Additional observations from a re-analysis of the deposited data

How the results depend on the processing

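Calls depended on single libraries. The 7 genes that passed the filter had a positive log2 fold change under every alternative in which they were tested. Because they were chosen with this difference known and the fits share libraries, the sign is no test. The count of genes called, 3970, was 1568 with limma on log2(FPKM + 0.1) without a filter and 2109 with the length correction, and 8 to 6119 with 1 library left out. Members called higher, 6 at first, were 1 with limma without a filter and 0 to 7 with 1 library left out. The share of all genes called higher was 12.2% at first, 5.13% with limma without a filter and 0.0182% to 18.3% with 1 library left out. It was 13.7% with at least 10 counts in every library, 17.7% with limma on log2(FPKM + 0.1) and 6.08% with the length correction. The counts called higher in the other lists are to be read beside the same shares. Other neutrophil genes called higher, 11 of 29 tested, were 7 with at least 10 counts in every library, 7 with limma on log2(FPKM + 0.1), 4 with limma without a filter, 5 with the length correction and 0 to 14 with 1 library left out, and those called lower, 0 at first, were 0 to 1. Genes of other lists called higher, 13 of 61, were 6 with the length correction and 0 to 16 with 1 library left out. Those called lower, 3, were 6 with DESeq2, 5 without a filter, 1 with limma without a filter and 0 to 9 with 1 library left out. The counts of 0 called higher came without Ctrl library 4 or Sox2 cKO library 1, where 0.0794% and 0.0182% of all genes were called higher. S100a6 changed sign with the length correction (-0.05), and Hbb-bs, at -0.02 in the fit of all libraries, ran from -0.28 to 0.53 with 1 library left out, the highest without Ctrl library 6. Beyond the number of genes tested, the cause of these differences was not tested. No paired analysis was possible because the columns of the tables carry no replicate numbers. The count of 3 mice a group and the low counts of Mpo, Elane and Ly6g set the precision.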

Other observations

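Genes outside the list were ranked by how closely their log2 CPM followed that of the 7 granule genes over the 6 libraries, after the mean of each group was subtracted. Of 14845 genes with a mean count of at least 20, 48 had Pearson's r of 0.95 or more. The 8 closest were Gm13293 (0.994), Slco4c1 (0.991), 9330136K24Rik (0.991), B230217O12Rik (0.989), Foxj2 (0.989), Kcnt1 (0.988), Trub2 (0.987) and Camkmt (0.986). None of them is on a neutrophil list used here. Their own differences between the groups were small, from -0.30 for B230217O12Rik to 0.47 for Slco4c1 on the log2 scale. The granule genes themselves had r of 0.80 (Camp) to 0.99 (Ltf) with the mean of the others, and Lcn2 had 0.94. Pearson's r compares shape and not size. The mean of the 7 genes ran from -1.03 in Sox2 cKO library 5 to 0.55 in library 3, on the centred log2 scale. Foxj2 was at 25.8 to 27.7 CPM in all 6 libraries. The number of genes that would reach 0.95 without a link to the granule genes was not computed. All these values share the same 6 libraries and are a description.

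Selp and Sele, which encode the adhesion molecules P-selectin and E-selectin of activated endothelium, were seen almost entirely in Sox2 cKO library 1. Selp had 3, 0 and 2 counts in the Ctrl group (libraries 2, 4 and 6) and 27, 0 and 0 in the Sox2 cKO group (libraries 1, 3 and 5). Sele had 0, 1 and 0 counts in Ctrl and 10, 0 and 0 in Sox2 cKO. Library 3, with the highest sum of granule genes, had 0 counts of both. Slfn4, a gene induced in neutrophils and macrophages, had 2, 2 and 1 counts in Ctrl and 40, 30 and 5 in Sox2 cKO and did not pass the filter on low counts. These 3 genes were chosen after their counts were seen.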
